A study of Arabidopsis thaliana with 5 samples.

Results

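The WUSCHEL-related homeobox (WOX) genes were followed in developing Arabidopsis thaliana seeds that lack a functional DOF4.1 gene. They comprise 10 of the 37336 genes in the count table: WOX8, WOX9, WOX2, WOX1, WOX3, WUS, WOX5, WOX11, WOX12 and WOX13. These members were chosen by family and gene name with the difference between dof4.1-3 and Col-0 seeds already known, including the lower counts of WOX8 in dof4.1-3, so every difference between the genotypes given here for a member is a description and not a test. The tested genotype was dof4.1-3, a T-DNA insertion mutant in the Col-0 background that the sample labels write as dof4-1, and it was set against wild type Col-0. Whole seeds were taken 9 days after pollination by the sample labels and the published methods, although the published results write 10 days. There were 3 libraries of dof4.1-3 and 2 of Col-0. The mutant is represented by this single allele, and the sources used here do not say whether the replicates came from separate plants, so p-values measure only the spread between these libraries. With 3 libraries against 2, an exact permutation test cannot give a p below 0.1.

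WOX proteins are plant transcription factors that bind DNA through a homeodomain, and most of them act in small groups of cells that keep or found a stem cell niche. After the zygote divides, WOX2 marks the apical daughter, which gives the embryo proper, whereas WOX8 and WOX9 mark the basal daughter, which gives the suspensor, the short file of cells that anchors and feeds the young embryo and degenerates later. The zygotic factors WRKY2, HDG11 and HDG12 activate WOX8, and the peptide gene CLE8 promotes its expression. WUS holds the stem cells of the shoot apex and WOX5 those of the root tip, WOX1 and WOX3 (also called PRESSED FLOWER) drive the outgrowth of leaf and floral organ margins, WOX11 and WOX12 set up root founder cells on wounded or cut tissue, and WOX13 belongs to the most ancient clade and is broadly expressed.

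The recognition helix of the homeodomain is the part that contacts DNA, and its bases show how near WOX8 is to each of the other members. Below are the 24 coding bases of 8 codons in this helix, 5' to 3', read from the RefSeq annotation of TAIR10.1; the capitals mark bases that differ from WOX8.
WOX8: tggtttcaaaaccggaaatctcga
WOX9: tggttCcaaaaccgTaaGtcCcgT
WOX11: tggtttcaaaaccggCGGtcAAgG
WOX12: tggtttcaaaaccgACGGtcAAga
WOX1: tggttCcaaaaccACaaaGcCcga
WOX2: tggttCcaGaaccATaaGGctAgG
WUS: tggttCcaGaaccATaaGGctcgT
WOX9 differed from WOX8 at 5 of the 24 bases and at 0 of the 8 residues they encode. WOX11 and WOX12 each differed at 6 bases and 1 residue, WOX1 at 5 bases and 2 residues, WOX2 at 8 bases and 2 residues, and WUS at 7 bases and 2 residues. Over a window of 30 residues that ends with these 8, WOX9 had 26 residues identical to WOX8, WOX11 and WOX12 20, WOX2 18, and WOX13 14. In the whole protein, WOX8 with its 325 residues and WOX9 with its 388 shared 50.8% of positions of the shorter protein, and WOX11 and WOX12 shared 69.4%, against 26.5% for WOX8 and WOX1. Despite this likeness, 0 of the 955 exon windows of 50 bases in WOX8 occurred a second time in the nuclear genome. The count was 0 for each of the other 9 members too. Reads of at least that length without errors, within an exon of the longest transcript, could thus be placed on a single member. Reads across splice junctions and exons found only in other isoforms were not checked.

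WOX8 (AT5G45980) lies on the plus strand at chr5:18648886-18650836. It is shown with the 250 bases before its annotated transcript start because it had the lowest fitted log2 fold change of the members; capitals mark AAAG or its complement CTTT, the core that DOF factors bind.
WOX8 upstream, chr5:18648636-18648885, plus strand: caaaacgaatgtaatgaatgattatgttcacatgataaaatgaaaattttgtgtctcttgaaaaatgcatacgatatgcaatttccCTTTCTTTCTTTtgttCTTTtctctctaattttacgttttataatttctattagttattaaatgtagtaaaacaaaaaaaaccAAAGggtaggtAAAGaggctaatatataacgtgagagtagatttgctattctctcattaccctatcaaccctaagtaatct
This window held 6 AAAG cores, counted on both strands as for every motif here, and 75.7% of 27443 protein-coding promoters of the same length held fewer. Of the members whose windows were analysed here, WOX2 and WOX3 also had 6, WUS and WOX12 5, WOX9 4, and WOX5, WOX11 and WOX13 2 each. The core is short and was found in 98% of all promoters, with a median of 4, and a match is a description of letters and not a bound site. TTGAC, the W-box core bound by WRKY factors, was present in 44.9% of promoters and in WOX5; these letters are not in the WOX8 window. The RY element CATGCA, the target of B3 seed regulators, was present in 8.43% of promoters and in WUS and WOX5, and the G-box CACGTG, found in 6.49% of promoters, was not in the WOX8 window. TAAT, a core of homeodomain sites, was present 9 times in the WOX8 window, against a median of 5 in the promoters of all genes.

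The libraries held 20101091 to 21722055 gene counts in dof4.1-3 and 16500028 to 17049283 in Col-0. DOF4.1 itself had 3, 4 and 4 counts in dof4.1-3 and 1 and 14 in Col-0, so the groups overlapped, and counts this low do not check the labels. Levels are given as CPM, counts relative to the library total after scaling by the trimmed mean of M-values (TMM), where genotypes are compared, and as TPM, the same kind of unit after division by transcript length and without TMM scaling, where genes are compared. Markers of several seed parts are set beside the WOX values further on.

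WOX8, the basal lineage gene, had 39, 23 and 33 counts in dof4.1-3, against 76 and 153 in Col-0. In CPM these are 1.78, 1.25 and 1.71 in dof4.1-3, against 4.69 and 7.50 in Col-0. The groups did not overlap, the highest dof4.1-3 library lying below the lower Col-0 library, and the Col-0 libraries were the more scattered. The means were 1.58 ± 0.29 CPM in dof4.1-3 (SD, n = 3) and 6.09 ± 1.99 CPM in Col-0 (SD, n = 2), and the fitted log2 fold change was -1.94 with a standard error of 0.33, or 0.260 of the Col-0 level. In bulk seeds, fewer cells of a type and less RNA per cell cannot be told apart. As a record of the fit and not as support, the adjusted p of WOX8 from edgeR's quasi-likelihood test with Benjamini-Hochberg adjustment was 0.0290, and it was 0.0723 once a trend with transcript length was removed. Leaving out Col-0 replicate 1 gave 0.204, leaving out Col-0 replicate 2 gave 0.319 and leaving out dof4.1-3 replicate 3 gave 0.0965, while the log2 fold change stayed between -2.23 and -1.56.

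WOX9 (AT2G33880), the closest relative of WOX8 and its partner in the basal lineage, had 527, 428 and 511 counts in dof4.1-3, against 414 and 614 in Col-0. In CPM it averaged 24.6 ± 1.74 in dof4.1-3 (SD, n = 3) and 27.8 ± 3.22 in Col-0 (SD, n = 2), with overlapping groups. Its log2 fold change was -0.18 with a standard error of 0.19. The WOX8 to WOX9 count ratio, which does not depend on library scaling, was 0.0740, 0.0537 and 0.0646 in dof4.1-3, against 0.184 and 0.249 in Col-0. The ratio was thus lower in each dof4.1-3 library than in either Col-0 library.

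WOX2 (AT5G59340), the apical lineage gene, was scarce, with 9, 16 and 14 counts in dof4.1-3 and 11 and 14 in Col-0. Its groups overlapped and its log2 fold change was -0.04. The standard error was 0.53, the widest of the members in the fit, so a difference of about the size of this error could have been missed.

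**Figure D1:**
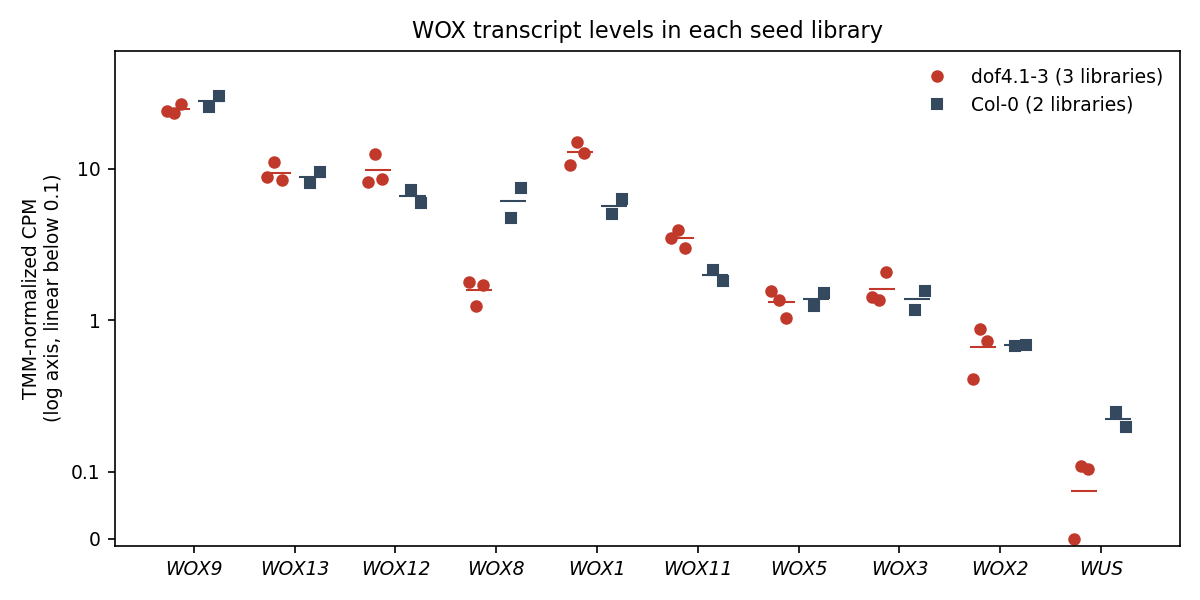
TMM-normalized CPM of the 10 WOX genes (log axis, linear below 0.1) in 3 dof4.1-3 libraries (circles) and 2 Col-0 libraries (squares), with horizontal lines at the group means and genes in order of their Col-0 mean. WOX8 at 1.25 to 1.78 CPM in dof4.1-3 lies below its Col-0 values of 4.69 and 7.50, WOX1 lies above its Col-0 values, and WOX9, WOX13, WOX5, WOX3 and WOX2 overlap.

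WOX1 and WOX3, the lamina margin genes, differed in how they stood between the genotypes. WOX1 (AT3G18010), on the minus strand at chr3:6160733-6163453, had 232, 277 and 246 counts in dof4.1-3, against 81 and 128 in Col-0. In CPM it had 10.6, 15.0 and 12.8 in dof4.1-3, against 4.995 and 6.27 in Col-0, so all dof4.1-3 libraries were above both Col-0 libraries. The fitted log2 fold change was 1.18 with a standard error of 0.25, or 2.26-fold, and WOX1 did not pass the adjusted threshold in edgeR (adjusted p = 0.0599) while it did in DESeq2 (adjusted p = 0.00435). WOX3 (AT2G28610) had 31, 25 and 40 counts in dof4.1-3, against 19 and 32 in Col-0. Its groups overlapped in CPM, and its log2 fold change was 0.23 with a standard error of 0.41.

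WOX11 (AT3G03660) and WOX12 (AT5G17810), the root founder cell pair, were both above Col-0 in every dof4.1-3 library without passing the test. WOX11 had 3.46, 3.91 and 3.01 CPM in dof4.1-3, against 2.16 and 1.81 CPM in Col-0, from 58 to 76 and from 35 to 37 counts per library. WOX12 had 8.11, 12.5 and 8.57 CPM in dof4.1-3, against 7.28 and 5.93 CPM in Col-0, from 165 to 231 and from 118 to 121 counts. The log2 fold changes were 0.80 with a standard error of 0.32 for WOX11 and 0.56 with a standard error of 0.27 for WOX12. The gap between the groups was narrow for WOX12, whose lowest dof4.1-3 library was at 8.11 CPM and whose highest Col-0 library was at 7.28 CPM.

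The stem cell niche genes WUS and WOX5 were scarce in whole seeds. WUS (AT2G17950) had 0, 2 and 2 counts in dof4.1-3, against 4 and 4 in Col-0, and was left out of the fit by the filter on low counts. Over the libraries this makes 4 counts in dof4.1-3 and 8 in Col-0, a ratio of 0.307 after scaling with a 95% exact interval of 0.0677 to 1.15 that covers counting error only. WOX5 (AT3G11260) had 34, 25 and 20 counts in dof4.1-3, against 20 and 31 in Col-0, with overlapping groups and a log2 fold change of -0.07 with a standard error of 0.40.

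WOX13 (AT4G35550), the broadly expressed member, had 194, 203 and 162 counts in dof4.1-3, against 130 and 194 in Col-0. In CPM its groups overlapped, and its log2 fold change was 0.10 with a standard error of 0.23. It is the only member that overlaps another annotated gene, AT4G35540 on the opposite strand, which had 65, 52 and 56 counts in dof4.1-3 and 37 and 63 in Col-0. Counting was done without strand, so reads of the shared stretch cannot be assigned by strand to either gene.

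**Figure D2:**
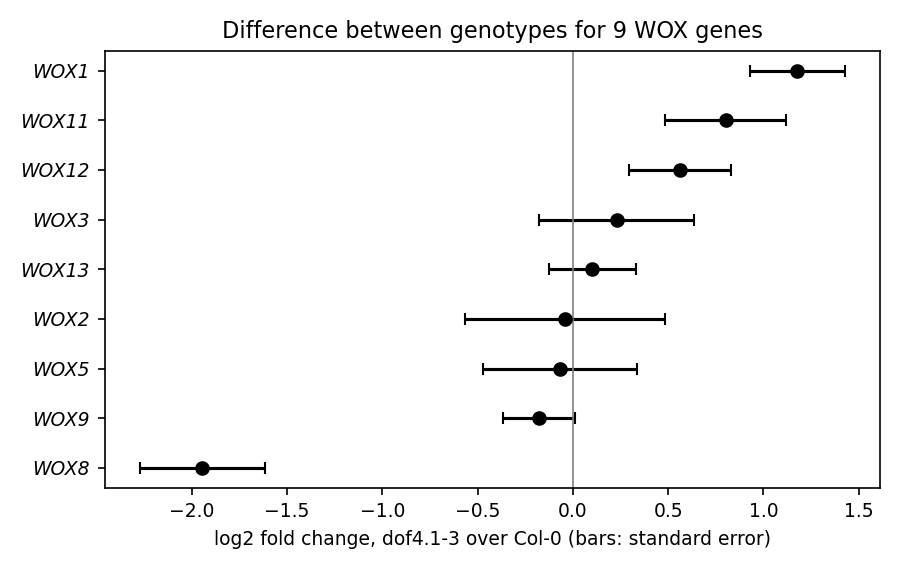
Fitted log2 fold change of dof4.1-3 over Col-0 (points) with its standard error (bars) for the 9 WOX genes in the fit, 3 dof4.1-3 and 2 Col-0 libraries. WOX8 stands alone on the left at -1.94, WOX1, WOX11 and WOX12 lie between 0.56 and 1.18, and the other 5 lie between -0.18 and 0.23.

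Of the 10 members, 9 passed the filter on low counts. Of these 9, 1 was called lower in dof4.1-3 (WOX8), beside 0.963% of all 19003 genes tested, and 0 were called higher, beside 0.121%. In edgeR, 2 had an unadjusted p under 0.05 with a higher level, WOX1 and WOX11, beside 6.33% of all genes tested. DESeq2 called 1 higher, WOX1, beside 1.27% of its genes, and limma-voom called 0 higher, beside 0.132%. In the lower direction, the shares over all genes were 9.52% at an unadjusted p under 0.05, 3.04% in DESeq2 and 0.952% in limma-voom, and WOX8 was the 1 member in each. Of all 19003 genes tested, 9992 had a positive log2 fold change and 9011 a negative one. The list counts further on are to be read beside these same shares and counts. In 1 of the 9, WOX8, every dof4.1-3 library was below both Col-0 libraries, as in 18.3% of all genes tested, and in 3 of the 9, WOX1, WOX11 and WOX12, every one was above, as in 16.3%. The median log2 fold change of the 9 was 0.10, beside 0.03 over all genes tested. Since the members were picked with this contrast known, nothing is read from these counts.

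The remaining 5 of the 15 WOX genes were nearly silent. WOX4 (AT1G46480), a gene of the vascular cambium, had 5 to 6 counts in each library of both genotypes. WOX6, WOX7 and WOX14 had at most 2 counts in any library, and WOX10 had 0 in all libraries, where the 3 counts taken as a floor correspond to 0.137 to 0.163 CPM in dof4.1-3 and 0.147 to 0.185 CPM in Col-0. None of these 5 entered the fit.

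Per transcript length, WOX9 was the most abundant WOX gene in both genotypes, at 15.7 TPM in dof4.1-3 (range 12.3 to 18.1) and 20.6 TPM in Col-0 (range 16.1 to 24.995). In dof4.1-3 WOX12 (10.1 TPM), WOX1 (8.97 TPM) and WOX13 (8.40 TPM) came next, each overlapping its neighbour, and a lower tier of WOX3 (1.76 TPM), WOX8 (1.75 TPM), WOX11 (1.71 TPM) and WOX5 (1.58 TPM) followed with overlapping ranges. In Col-0 WOX8 stood in the upper tier, with WOX13 (9.19 TPM), WOX12 (7.94 TPM), WOX8 (7.83 TPM) and WOX1 (4.70 TPM) each overlapping the next, while WOX5 (1.90 TPM) and WOX3 (1.75 TPM) overlapped below them and WOX11 (1.12 TPM) followed. WOX2 and WUS were low in both. The transcript lengths are those of the annotation, and the isoforms used in seeds were not measured.

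As a share of the summed TPM of the 10 members, WOX8 made up 4.11%, 2.41% and 3.69% in dof4.1-3, against 11.4% and 15.7% in Col-0. WOX1 made up 16.1%, 19.2% and 18.1% in dof4.1-3, against 8.02% and 8.65% in Col-0. The shares of both genes were apart between the genotypes, and so was that of WOX9, with 26.3% to 33.5% in dof4.1-3 and 36.4% to 36.9% in Col-0. Also apart were WOX11, with 2.97% to 3.67% in dof4.1-3 and 1.74% to 2.41% in Col-0, and WOX12, with 18.1% to 23.7% and 12.1% to 17.3%. The share of WUS was apart too, from at most 4 counts per library. Shares in a library add up to a fixed total, so a lower share of WOX8 and higher shares of others are not separate observations. The WOX1 to WOX8 count ratio was 5.95, 12.0 and 7.45 in dof4.1-3, against 1.07 and 0.837 in Col-0. The WOX1 to WOX9 count ratio was 0.440, 0.647 and 0.481 in dof4.1-3, against 0.196 and 0.208 in Col-0, so WOX1 also stood higher when read against WOX9.

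**Figure D3:**
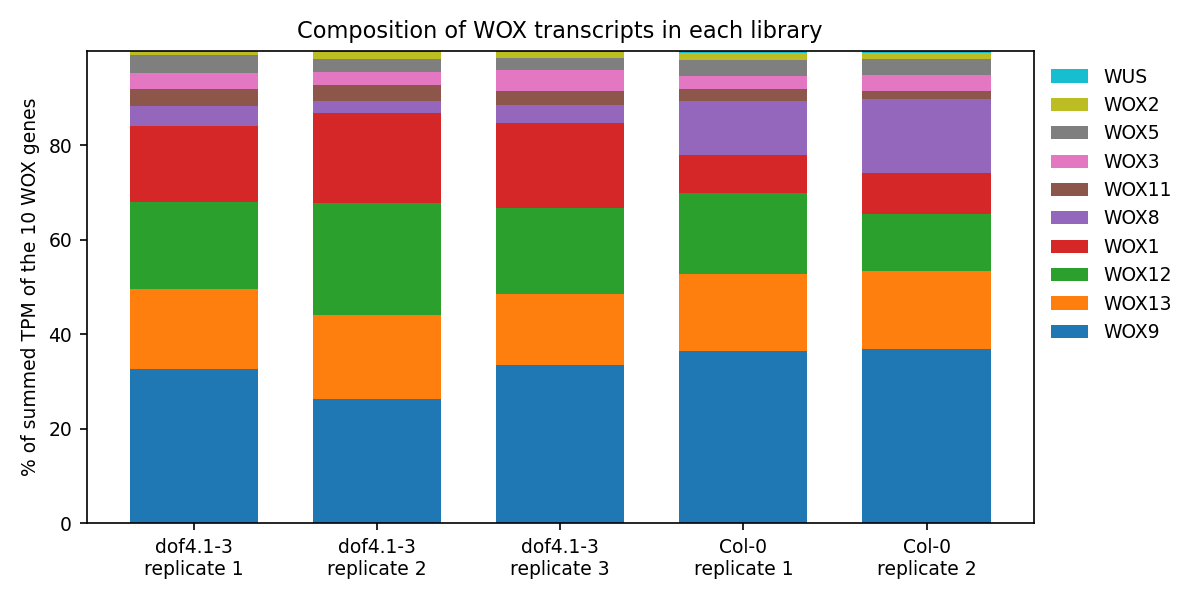
Share of each WOX gene in the summed TPM of the 10 members (stacked bars, % on the vertical axis from 0) for the 3 dof4.1-3 libraries and the 2 Col-0 libraries. The WOX8 band is 2.41% to 4.11% high in dof4.1-3 and 11.4% to 15.7% in Col-0, and the WOX1 band is wider in every dof4.1-3 library.

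Genes that act on WOX8 or beside it in the zygote and suspensor did not pass the test in this comparison. Of 18 listed genes, 12 were tested and edgeR called 0 lower and 0 higher, as did DESeq2 and limma-voom, with 0 lower and 1 higher at an unadjusted p under 0.05. Log2 fold changes were positive for 10 and negative for 2, beside 9992 positive of all 19003 genes tested. Their median was 0.27, beside 0.03 over all genes tested. In 4 of the 12, YDA, MKK5, BDL and TMO7, every dof4.1-3 library was above both Col-0 libraries, beside 16.3% of all genes tested. In 0 of the 12 every one was below, beside 18.3%. YDA, a MAP kinase kinase kinase of zygote elongation, had the smallest p, with 23.1, 17.1 and 19.1 CPM in dof4.1-3 and 12.1 and 14.7 CPM in Col-0, or 0.55 on the log2 scale with a standard error of 0.22 (edgeR adjusted p = 0.255). MP, an auxin response factor of the early embryo, had 0.50 (adjusted p = 0.367), and MKK5, a kinase below YDA, had 0.41 (adjusted p = 0.426). The activator WRKY2 had 75, 82 and 93 counts in dof4.1-3, against 45 and 88 in Col-0, and HDG11 had 129, 52 and 101 counts in dof4.1-3, against 38 and 79 in Col-0. Their log2 fold changes were 0.25 with a standard error of 0.31 for WRKY2 and 0.58 with a standard error of 0.38 for HDG11, and HDG12 had 0.15 with a standard error of 0.25. The groups overlapped for all 3 of these activators. CLE8, SSP and RKD4, which act around fertilization or in the very young seed, had 0 counts in all libraries, and the ESF1 peptide genes of the early endosperm had at most 1 count in any library.

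The genes that work with WUS, WOX5 and the margin pair mostly had positive log2 fold changes without an edgeR call. Over all 19003 genes tested, 9992 had a positive log2 fold change. Of 14 shoot meristem genes 13 were tested, with 0 called in either direction by edgeR and by limma-voom, 2 called higher by DESeq2, 1 lower and 3 higher at an unadjusted p under 0.05, and a median log2 fold change of 0.35. Log2 fold changes were positive for 10 and negative for 3: STM (-0.85, edgeR adjusted p = 0.314), CUC1 (-0.56) and CLV1 (-0.27). In STM and CUC1 every dof4.1-3 library was below both Col-0 libraries, beside 18.3% of all genes tested. In 4 of the 13 every one was above, beside 16.3%. Both DESeq2 calls, HAM2 and HAM1, encode GRAS proteins that bind WUS, and HAM2 had 28.1, 27.6 and 27.6 CPM in dof4.1-3, against 15.5 and 14.7 CPM in Col-0. Its log2 fold change was 0.88 (standard error 0.18, adjusted p = 0.0596 in edgeR), that of HAM1 was 0.76 (adjusted p = 0.0917), and that of PDF2, an epidermal homeodomain gene, was 0.56 (adjusted p = 0.247).

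Of 9 root meristem genes 8 were tested and all 8 had positive log2 fold changes, beside 9992 of all 19003 genes tested. Their median was 0.54. EdgeR and limma-voom called 0 of them, DESeq2 called 1 higher, and 2 were higher at an unadjusted p under 0.05. The DESeq2 call was SCR, a GRAS gene of the ground tissue and quiescent centre, with 93.2, 85.6 and 118 CPM in dof4.1-3, against 38.3 and 53.5 CPM in Col-0. SCR was fitted at 2.15-fold, with an adjusted p of 0.0624 in edgeR. JKD, a zinc finger partner of SCR, had 0.76 (adjusted p = 0.165) and ACR4, a receptor kinase of the root tip, 0.45 (adjusted p = 0.330).

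All 11 leaf polarity and margin genes were tested, and all had positive log2 fold changes, beside 9992 of all 19003 genes tested. Their median was 0.32. EdgeR, DESeq2 and limma-voom each called 0 of them, and 0 had an unadjusted p under 0.05. The smallest p was that of YAB3, an abaxial YABBY gene, fitted at 0.36 on the log2 scale (adjusted p = 0.403), followed by AS2 with 0.43 (adjusted p = 0.430) and PHV with 0.34 (adjusted p = 0.528). The 5 TOPLESS co-repressor genes, whose proteins WUS recruits, likewise had 0 calls by the 3 tools and 0 at an unadjusted p under 0.05, with a median of 0.27. TPR2 had the smallest p, at 0.30 on the log2 scale (adjusted p = 0.513), followed by TPR4 with 0.27 (adjusted p = 0.589) and TPR1 with 0.27 (adjusted p = 0.622).

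The genes whose level moved most like WOX8 over the 5 libraries were sought among the 17407 genes that averaged 1 CPM or more. The measure was the root mean square difference between log2 CPM profiles, each centred on its own mean, and the points share the same libraries and their depth. The nearest was AT2G15325, annotated as a lipid transfer and 2S albumin superfamily gene, at a distance of 0.07, with 4.24, 3.04 and 3.64 CPM in dof4.1-3, against 11.2 and 16.95 CPM in Col-0. SCRL26, a cysteine-rich peptide gene, followed at 0.16, AT5G37478 at 0.17 and the F-box gene AT1G70970 at 0.18. The fifth was BAN, the anthocyanidin reductase of the seed coat endothelium, at 0.19. BAN had 14.3, 9.71 and 11.7 CPM in dof4.1-3, against 41.4 and 44.8 CPM in Col-0. These 5 were picked for their likeness to WOX8, so that they are lower in dof4.1-3 follows from the choice.

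**Figure D4:**
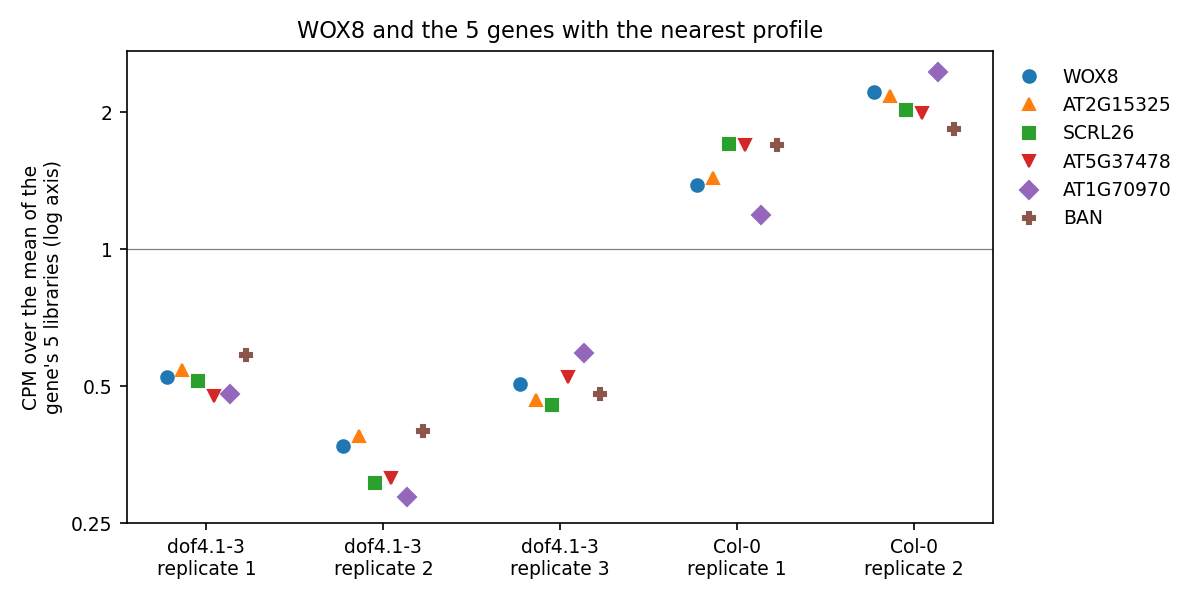
CPM of WOX8 and of the 5 genes with the nearest profile, each divided by its own mean over the 5 libraries (log axis), for 3 dof4.1-3 libraries and 2 Col-0 libraries. All 6 genes lie at 0.286 to 0.593 of their mean in dof4.1-3 and at 1.19 to 2.45 in Col-0, and dof4.1-3 replicate 2 is the lowest library for each.

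Levels of markers of the seed coat, embryo, endosperm and silique wall stand beside the WOX values. Of 8 seed coat markers 7 were tested, 1 fell in edgeR (BAN, log2 fold change -1.85, standard error 0.21, adjusted p = 0.0105) and 0 were called higher. At an unadjusted p under 0.05, 5 were lower and 0 higher, DESeq2 called 4 lower and 0 higher, and limma-voom called 1 lower and 0 higher. In 6 of the 7 every dof4.1-3 library was below both Col-0 libraries. Over all 19003 genes tested, every dof4.1-3 library was below both Col-0 libraries in 18.3% and above both in 16.3%. Such counts for the other marker lists are to be read beside these shares. The summed level of the seed coat markers was 2455 to 2800 CPM in dof4.1-3 and 3629 to 4620 CPM in Col-0. Of 9 embryo maturation markers, such as the cruciferin genes CRA, CRB and CRC, edgeR called 0 and DESeq2 6 higher, limma-voom called 0, and 6 were higher and 1 lower at an unadjusted p under 0.05. Their sum was 72760 to 169306 CPM in dof4.1-3 and 30480 to 53674 CPM in Col-0, without overlap. Most of this sum came from CRA, CRB and CRC. In 6 of the 9 every dof4.1-3 library was above both Col-0 libraries, and in 1 every one was below. That lower gene was the regulator LEC2, with 2.64, 2.55 and 2.805 CPM in dof4.1-3, against 4.01 and 5.54 CPM in Col-0. Its log2 fold change was -0.84 (edgeR adjusted p = 0.196). The groups overlapped for the regulator FUS3, while ABI3 was among the 6 above. Of 7 endosperm markers 5 were tested, edgeR and limma-voom called 0, DESeq2 called 2 lower (ZOU and ALE1) and 2 were lower at an unadjusted p under 0.05. Their sum was 237 to 338 CPM in dof4.1-3 and 307 to 349 CPM in Col-0, with overlap. Most of this sum was ICE1, with 247, 187 and 196 CPM in dof4.1-3, against 170 and 203 CPM in Col-0. ZOU had 21.5, 14.5 and 18.9 CPM in dof4.1-3, against 31.6 and 37.1 CPM in Col-0. ALE1 had 67.9, 34.5 and 35.1 CPM in dof4.1-3, against 104 and 106 CPM in Col-0. In these 2 of the 5, every dof4.1-3 library was below both Col-0 libraries, and in 0 every one was above. Among the early endosperm genes, AGL62 had 14, 1 and 2 counts in dof4.1-3, against 6 and 14 in Col-0, FIS2 had 5, 1 and 4 counts in dof4.1-3, against 7 and 26 in Col-0, and PHE1 had 0 or 1 count in dof4.1-3, against 1 and 3 in Col-0. MEA went the other way in sign, with 8, 24 and 23 counts in dof4.1-3, against 8 and 8 in Col-0, and a log2 fold change of 1.09 (adjusted p = 0.445). The 4 silique wall markers summed to 27.7 to 34.3 CPM in dof4.1-3 and 43.4 to 44.8 CPM in Col-0, with 0 calls by the 3 tools and 1 lower at an unadjusted p under 0.05. In 3 of these 4 every dof4.1-3 library was below both Col-0 libraries, and in 0 every one was above. The part that these seed coat, embryo, endosperm and silique wall levels have in the lower WOX8 or the higher WOX1 values was not tested.

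**Figure D5:**
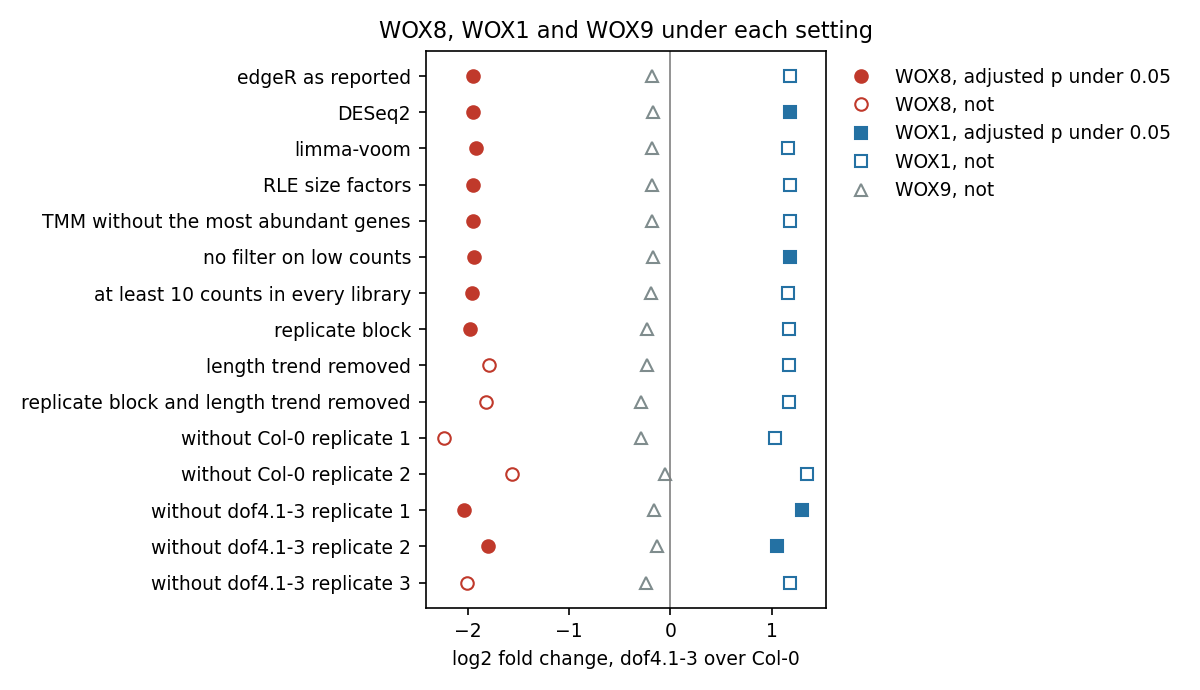
Log2 fold change of dof4.1-3 over Col-0 for WOX8 (circles), WOX1 (squares) and WOX9 (triangles) as reported and under 14 other settings, one per row; filled symbols have an adjusted p under 0.05 and open ones do not. WOX8 runs from -2.23 to -1.56, WOX1 from 1.03 to 1.35 and WOX9 from -0.29 to -0.06.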

How the data were processed

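RNA-seq of whole seeds was analysed from the counts per gene that the authors deposited. Reads were trimmed with cutadapt, mapped to TAIR10 with HISAT2 and counted with htseq-count without strand (tool versions: not given in the sources used here), giving 1 column per library and 0 columns of other samples. The 5 summary lines and 9 blank lines were left out. The no-feature and ambiguous lines equalled 0.727% to 1.74% and 3.09% to 3.92% of the gene counts and summary lines together. Genes passing filterByExpr (19003) were fitted with edgeR 4.0.16 (TMM, quasi-likelihood F test, genotype as the only term, Benjamini-Hochberg, call at adjusted p under 0.05), under R 4.3.3, with 3 residual degrees of freedom. The standard error is the log2 fold change over the square root of F. Alternatives used DESeq2 1.42.0, limma-voom 3.58.1, other scalings and filters, a length trend, a replicate block and leaving out each library. TPM and positions used RefSeq TAIR10.1, sharing gene identifiers with the table. No libraries were duplicates. Members and lists were chosen with earlier results of these data known. Named genes were the members, the 5 other WOX genes, called list members or else the 3 with the smallest p, the 5 nearest profiles to WOX8, and DOF4.1; WRKY2, HDG11, HDG12 and the listed marker genes were named in addition for their role. The script was tested on simulated data. The upstream window of 1 member is not reported here.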

Additional observations from a re-analysis of the deposited data

How the results depend on the processing

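Among all genes, 183 were lower and 23 higher in dof4.1-3; DESeq2 gave 596 and 249, no filter on low counts 565 and 170, a length trend removed 44 and 10, and this with the replicate block 2 and 2. With 1 library left out, 0 to 707 were lower and 0 to 181 higher. Leaving out a Col-0 library leaves 1 there, assumed to vary like the other group. The WOX members called lower were 0 instead of 1 with the length trend removed, with or without the block, and 0 to 1 with a library left out; those called higher were 1 instead of 0 with DESeq2 and with no filter, and 0 to 1 with a library left out. WOX8 kept its direction in all 14 settings and its call in 9: it had -1.79 (adjusted p = 0.0723) with the length trend removed, -1.81 (adjusted p = 0.315) with the block added, and -2.23 to -1.56 with a library left out. WOX1 was called higher in 4 of 14: DESeq2, no filter (adjusted p = 0.00788), and without dof4.1-3 replicate 1 (adjusted p = 0.0241) or 2 (adjusted p = 0.0350). Signs near 0 turned: WOX2 had 0.07 with the length trend removed and -0.27 to 0.22 with a library left out, WOX5 0.080 with the replicate block, 0.12 with the length trend, 0.27 with both and -0.20 to 0.093 with a library left out, and WOX13 -0.019 to 0.23 with a library left out. Same-numbered libraries deviated from their group means with correlations of -0.25 and -0.29. With 2 Col-0 libraries these deviations mirror each other, so the differently numbered pairs of the same libraries gave 0.25 and 0.29 by construction. Whether same-numbered libraries share more than a number cannot be told from these values. The replicate block in edgeR gave WOX8 -1.98 (adjusted p = 0.0423), with 175 genes lower and 29 higher. A minimum of 10 counts in every library gives no value for WOX2. The causes of these changes were not tested. Low counts limit WOX2 (9 to 16 per library), WUS (0 to 4) and DOF4.1 (1 to 14).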
